A study of Mus musculus with 2 samples.

Results

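The Mir29 family of the mouse is made of 4 microRNA genes in 2 clusters, Mir29a with Mir29b-1 on chromosome 6 and Mir29b-2 with Mir29c on chromosome 1. The members were taken by gene name, by a rule that uses no measured value, although earlier results of these data were known when the family was picked. All 4 were found among the 2202 microRNA genes of the count tables. All 4 passed the filter of an average of 10 CPM, which 324 genes passed. CPM are counts per 1000000 sense counts of a library. The RNA, of the microRNA size class, came from 2 females aged 36 days, whose left cerebral cortex was taken. They were of the hybrid B6CASTF1/J, a cross of C57BL/6J with the CAST strain. Each mouse gave 1 library, and both belong to a single group with no treatment, genotype contrast or second tissue in the labels. The labels number the animals separately and put both under 1 donor code, and they were taken as separate mice. No comparison between conditions could be made, and with a single age no change with maturation was measured. What follows describes the members in both animals and sets mouse 2 (replicate 2) against mouse 1 (replicate 1). Differences between the animals and differences of library preparation cannot be told apart.

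MicroRNAs are cut from hairpin precursors, in which the 5p and the 3p arm can each give a mature strand. The mature strand guides Argonaute to messenger RNAs that pair with its seed, here bases 2 to 8, and so lowers their translation and stability. In this family the 3p arm is the known guide strand. Mir29 microRNAs are known in the brain for rising after birth and for repressing the DNA methyltransferase gene Dnmt3a and pro-apoptotic BH3-only genes in maturing neurons. In many other tissues they are known for repressing collagen and elastin genes.

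The mature 3p sequences show what unites the family and what separates its members. They are given 5′ to 3′ from RefSeq (GRCm38.p6), with the seed in capitals.
miR-29a-3p: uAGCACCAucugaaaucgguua
miR-29b-3p: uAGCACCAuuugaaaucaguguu
miR-29c-3p: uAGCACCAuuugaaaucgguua
All 3 carry the seed AGCACCA. Among 1738 mature entries of the RefSeq table, the 4 that hold this seed belong to the 4 Mir29 genes. With positions counted from 1 at the 5′ end, miR-29c-3p differs from miR-29a-3p by 1 substitution, C10U. Over the 22 bases compared, miR-29c-3p differs from miR-29b-3p by 3, A18G, G21U and U22A. The tail AGUGUU, which begins at position 18 of miR-29b-3p, is known from human cells as a signal for nuclear import. On the mature strand it ended 2 of 1674 distinct mature sequences (0.119%), and of the Mir29 strands it was found in miR-29b-3p alone.

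The hairpins show where reads of different members can be told apart. They are given 5′ to 3′ with the mature 3p arm in capitals, and all 4 RefSeq hairpins match the GENCODE M21 transcripts base for base.
Mir29a: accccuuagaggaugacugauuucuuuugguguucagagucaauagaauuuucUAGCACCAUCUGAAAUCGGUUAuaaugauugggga
Mir29b-1: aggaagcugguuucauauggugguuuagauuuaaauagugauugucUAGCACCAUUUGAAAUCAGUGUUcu
Mir29b-2: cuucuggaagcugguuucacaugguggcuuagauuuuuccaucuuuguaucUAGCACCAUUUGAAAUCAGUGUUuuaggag
Mir29c: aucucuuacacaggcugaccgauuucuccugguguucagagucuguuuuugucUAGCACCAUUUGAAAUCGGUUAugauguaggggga
The whole of miR-29b-3p stands in both Mir29b hairpins, at 2 places in the genome annotation. Reads that mapped to several places stand in a line of their own in the authors' tables, outside the gene counts, so the counts of Mir29b-1 and Mir29b-2 leave out any such reads, whose number is unknown. The 5p arms of the 2 hairpins differ, and each was found in its own hairpin alone.
miR-29b-1-5p: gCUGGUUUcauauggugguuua
miR-29b-2-5p: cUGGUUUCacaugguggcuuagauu
In capitals are again bases 2 to 8, which are not the same in these strands because the RefSeq entries begin at different bases.

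Mir29a and Mir29c could be counted with less loss. Read from its 5′ end, miR-29a-3p is found in a single annotated hairpin from a length of 11 bases, and miR-29c-3p from 18 bases. Of the 20-base windows of each hairpin, none of 69 was found in a hairpin elsewhere for Mir29a. For Mir29c 3 of 69 windows (4.35%) stood in Mir29b-1. For Mir29b-2 6 of 62 (9.68%) stood in Mir29b-1, and for Mir29b-1 9 of 52 (17.3%) stood in Mir29b-2 or Mir29c. At least 1 such window is held by 1087 of all 2202 hairpins (49.4%). The search covered annotated hairpins on both strands, not the rest of the genome.

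**Figure D1:**
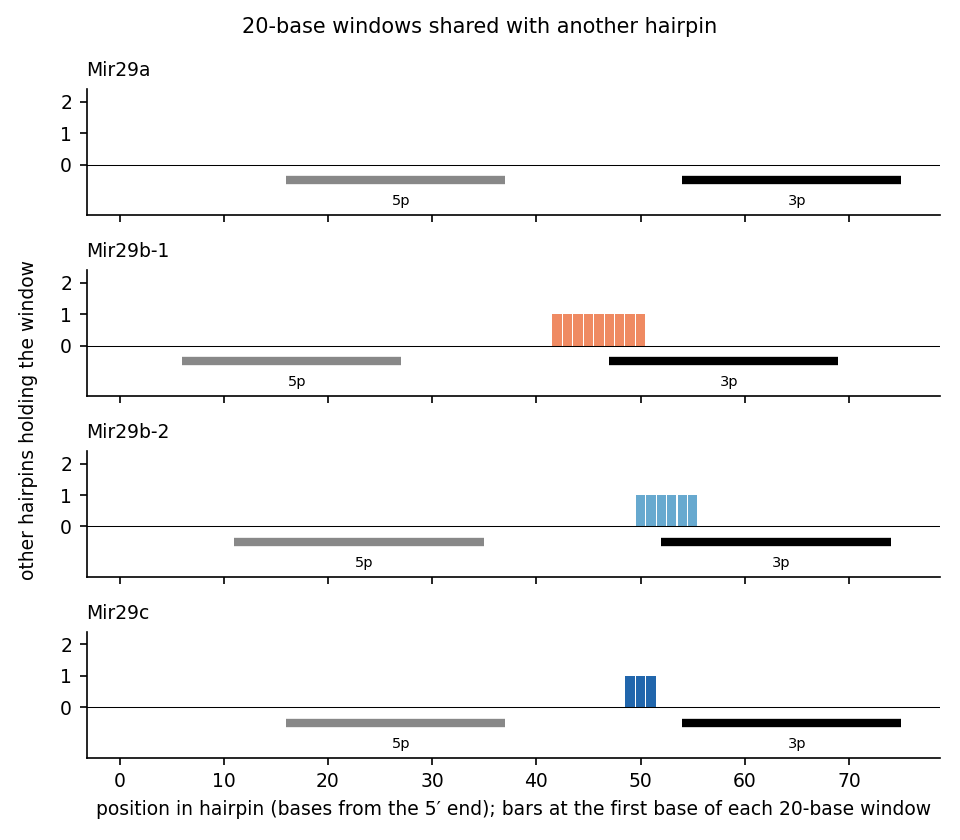
Windows of 20 bases along each Mir29 hairpin that also stand in a hairpin elsewhere. The x axis is the position in the hairpin in bases, the bars give the number of other hairpins at the first base of each window, and grey and black lines mark the 5p and 3p mature arms. The shared windows, 0 of 69 in Mir29a and 9 of 52 in Mir29b-1, begin just before or within the 3p arm.

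The 2 clusters are compact. On chromosome 6, minus strand, Mir29b-1 (ENSMUSG00000065604.2, chr6:31063023-31063093, mm10) is followed after 275 bases by Mir29a (ENSMUSG00000065610.1, chr6:31062660-31062747). Mir29b-1 overlaps an exon of the long non-coding RNA gene Gm27019 (chr6:31063092-31063495) only at its edge. Mir29a lies in no other annotated gene. The nearest larger transcript on that strand is the non-coding Lncpint, 19818 bases from Mir29a. On chromosome 1, plus strand, Mir29b-2 (ENSMUSG00000065412.3, chr1:195037040-195037120) is followed after 426 bases by Mir29c (ENSMUSG00000065548.1, chr1:195037547-195037634). Both lie in an exon of the non-coding transcript A330023F24Rik and, on the opposite strand, overlap an exon of Cd46, which codes for a complement regulator. In the column read as counts on the opposite strand, each of the 4 members had 0 counts in both mice.

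The libraries held 1863876 counts on the sense strand in mouse 2 and 1930234 in mouse 1, over microRNA genes. A single count is therefore about the same share of each library, and the limit that a count of 0 sets is 1.61 CPM in mouse 2 against 1.55 CPM in mouse 1. In mouse 2, 51.2% of mapped reads fitted several places, and in mouse 1 50.9%. Of the markers of cortical cell types, Mir128 and Mir138 genes (neurons), Mir219a-2 and Mir338 (oligodendrocytes) and Mir126a (endothelium) were read in both mice. The 3 neuronal Mir124a genes, known to give the same mature strand, had 1 to 4 counts per gene and mouse. Reads that map to several places are outside these counts too, so they give no level for that microRNA. The muscle markers summed to 25.8 CPM in mouse 2 against 38.3 CPM in mouse 1. Nearly all of that was Mir206, while the Mir1a and Mir133a genes had 0 or 1 counts. Reads at several places are outside this sum as well, so it does not show muscle RNA to be absent. The liver marker Mir122 was low, at 40.2 CPM in mouse 2 against 45.6 CPM in mouse 1. In tissue RNA, fewer cells of a type and less RNA per cell cannot be told apart. Intervals and floors cover the counting error of reads only, since each mouse gave 1 library. No molecular identifiers are named, so copies of the same molecule cannot be told from separate molecules.

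In counted reads the family was made up unevenly of its members. Together its 4 genes had 21205 counts in mouse 2 against 13231 in mouse 1, which is 1.14% of the sense counts in mouse 2 and 0.685% in mouse 1. The family sum averaged 9116 ± 3198 CPM (SD, n = 2). Mir29a alone gave 84.0% of the family's reads in mouse 2 and 90.1% in mouse 1. Mir29c gave 15.1% in mouse 2 and 8.09% in mouse 1, and the 2 Mir29b genes together 0.877% in mouse 2 and 1.78% in mouse 1. These are shares of reads that mapped to a single place, so reads that fit both Mir29b hairpins are in none of them.

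Mir29a, the member with C at position 10 of its 3p strand, was the most abundant in counted reads. It had 17821 counts in mouse 2 against 11925 in mouse 1, or 9561 CPM in mouse 2 against 6178 CPM in mouse 1, with a mean of 7870 ± 2392 CPM (SD, n = 2). Mouse 2 had the higher level. Levels of different genes are compared per 100 bases of hairpin. On that scale Mir29a had 10865 CPM in mouse 2 against 7020 CPM in mouse 1, and stood at place 33 of the 2202 genes by its mean.

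Mir29c, with the same seed and a single base changed, was the second. It had 3198 counts in mouse 2 against 1071 in mouse 1, or 1716 CPM in mouse 2 against 555 CPM in mouse 1, with a mean of 1135 ± 821 CPM (SD, n = 2). Mouse 2 was again the higher, and of the members this one had the widest SD relative to its mean. Per 100 bases it had 1950 CPM in mouse 2 against 631 CPM in mouse 1, at place 98 by its mean.

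Both Mir29b genes were low in counted reads, which leave out any reads that fit both their hairpins, so these values give no level of mature miR-29b-3p. Mir29b-2 had 117 counts in mouse 2 against 185 in mouse 1, or 62.8 CPM in mouse 2 against 95.8 CPM in mouse 1, with a mean of 79.3 ± 23.4 CPM (SD, n = 2), and was the only member with the lower level in mouse 2. Mir29b-1 had 69 counts in mouse 2 against 50 in mouse 1, or 37.0 CPM in mouse 2 against 25.9 CPM in mouse 1, with a mean of 31.5 ± 7.86 CPM (SD, n = 2). Per 100 bases, Mir29b-2 stood at place 215 and Mir29b-1 at place 252.

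The order of the per-base levels in counted reads was Mir29a, Mir29c, Mir29b-2 and Mir29b-1 in each mouse. The ranges of neighbours in that order did not overlap. The closest neighbours were Mir29b-2, at 77.5 CPM per 100 bases in mouse 2 and 118 in mouse 1, and Mir29b-1, at 52.1 in mouse 2 and 36.5 in mouse 1. Within a library, the level of Mir29b-1 per hairpin base was 0.673 of that of Mir29b-2 in mouse 2 (95% exact counting interval 0.492 to 0.914) and 0.308 in mouse 1 (0.221 to 0.423).

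**Figure D2:**
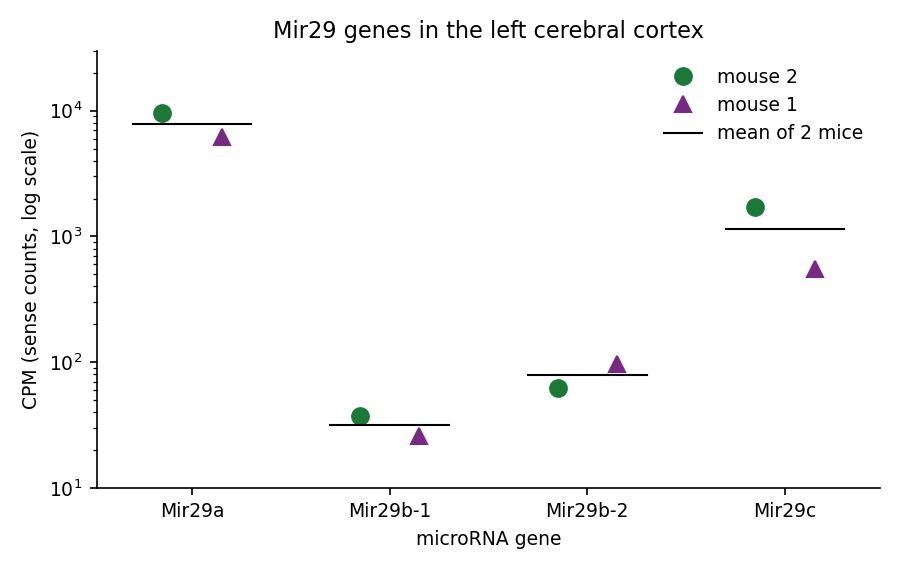
Level of each Mir29 gene in CPM on a log scale, with mouse 2 as circles, mouse 1 as triangles and the mean of both as a line. Mir29a had 9561 CPM in mouse 2 against 6178 in mouse 1, and Mir29c had 1716 CPM in mouse 2 against 555 in mouse 1. Both Mir29b genes stayed under 100 CPM, with any reads that fit both their hairpins left out.

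Neighbouring hairpins of a cluster are usually made from a common primary transcript, yet the levels within each Mir29 cluster lay far apart. Per hairpin base, Mir29a was 208 times as high as Mir29b-1 in mouse 2 (95% exact counting interval 165 to 268) and 192 times as high in mouse 1 (146 to 259). On the mean of both mice the difference was 202-fold. Among the 97 pairs of neighbouring tested hairpins less than 10 kb apart on 1 strand, this was the widest gap in level, and with neighbours up to 50 kb apart it was place 2 of 107. On chromosome 1, Mir29c was 13.2 times as high as Mir29b-2 per hairpin base on the mean of both mice, which was place 33 of the 97. The median gap of these pairs was 2.75 on the log2 scale. The loss of reads that fit both Mir29b hairpins bears on both of these gaps, and its part in them was not tested.

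A wider look at shared mature sequences placed the Mir29b genes beside others of their kind. This grouping was made after the values were seen and is given with no test. Of the 1018 genes with a mature sequence in RefSeq, 61 had a mature arm that also stands whole in a hairpin elsewhere and another arm that does not. Of these 61 genes 36 were tested, and their median level was 127 CPM per 100 bases. The 250 tested genes with no shared arm had a median of 374 CPM per 100 bases, and 6 tested genes with every arm shared had 579. These medians hold only for genes that passed the filter on level, which were 59.0% of the 61 genes with some arm shared, 27.6% of the 907 with none and 12.0% of the 50 with every arm shared. Mir29b-2 (97.9 CPM per 100 bases) and Mir29b-1 (44.3) lay below the first of these medians, and Mir29a (8943) and Mir29c (1290) above the second.

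**Figure D3:**
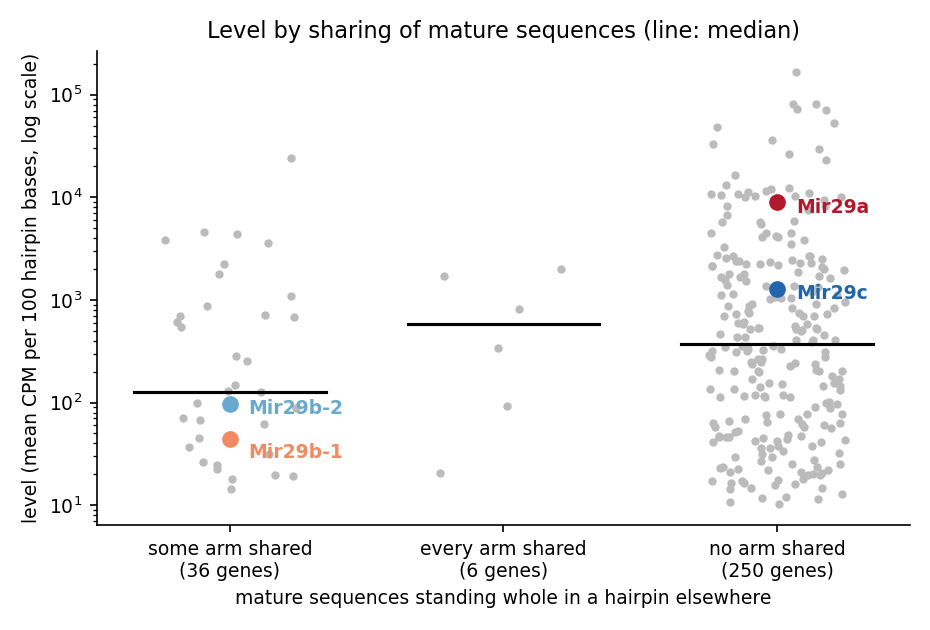
Level of each tested gene in mean CPM per 100 hairpin bases on a log scale, by whether some, every or none of its mature arms stand whole in a hairpin elsewhere. Each point is a gene and each line a median, which is 127 for 36 genes with some arm shared and 374 for 250 genes with none. Both Mir29b genes lie under the line of their class.

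Between the mice, Mir29c was the member that differed most. Its log2 ratio of mouse 2 over mouse 1 was 1.58 (95% counting interval 1.48 to 1.68), or 2.99-fold, on library sizes scaled by TMM (trimmed mean of M values). It was called, which here means at least 2-fold and an adjusted p under 0.05 in a two-sided exact binomial test (adjusted p = 8.81e-243, Benjamini-Hochberg over 324 genes). That test compares 2 libraries for counting error and not 2 conditions. By the same rule 63 of the 324 genes (19.4%) were called, 46 of them higher in mouse 2 (14.2%) and 17 higher in mouse 1 (5.25%). An adjusted p under 0.05 at any fold was reached by 74.7% of the tested genes in the exact test, and by 3 of the 4 members. With 1 of 4 members called, the family lay near that background. Mir29c took place 27 of 324 by the size of its ratio.

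Mir29a was higher in mouse 2 by less than 2-fold. Its log2 ratio was 0.58 (95% counting interval 0.55 to 0.62, adjusted p = 7.52e-259 by the exact binomial test), close to the median absolute log2 ratio of 0.53 over the 324 genes. Mir29b-2 had a log2 ratio of −0.66 (−1.01 to −0.32, adjusted p = 0.000193 by the exact test), lower in mouse 2 and under 2-fold. Mir29b-1 had 0.47 (−0.08 to 1.02, adjusted p = 0.104 by the exact test), so no difference was detectable at its depth. These intervals leave out the spread between animals and between library preparations. For both together, edgeR's common biological coefficient of variation over the tested genes was 0.399.

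The members have hairpins poor in G and C, from 35.2% for Mir29b-1 to 44.3% for Mir29c, against a mean of 51.0% over the tested genes. Across those genes the log2 ratio fell by 0.23 for each 10 percentage points more G and C. With this trend taken out, the log2 ratio of Mir29a was 0.30 and that of Mir29b-1 was 0.10, that of Mir29c was 1.43 and that of Mir29b-2 was −0.92. With the mean ratio taken out as well, they were 0.19 for Mir29a, 0.00143 for Mir29b-1, 1.32 for Mir29c and −1.03 for Mir29b-2. In that last setting Mir29b-2 was called lower in mouse 2 (adjusted p = 2.53e-09 by the exact test). Under both settings Mir29c was called and Mir29a was not.

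**Figure D4:**
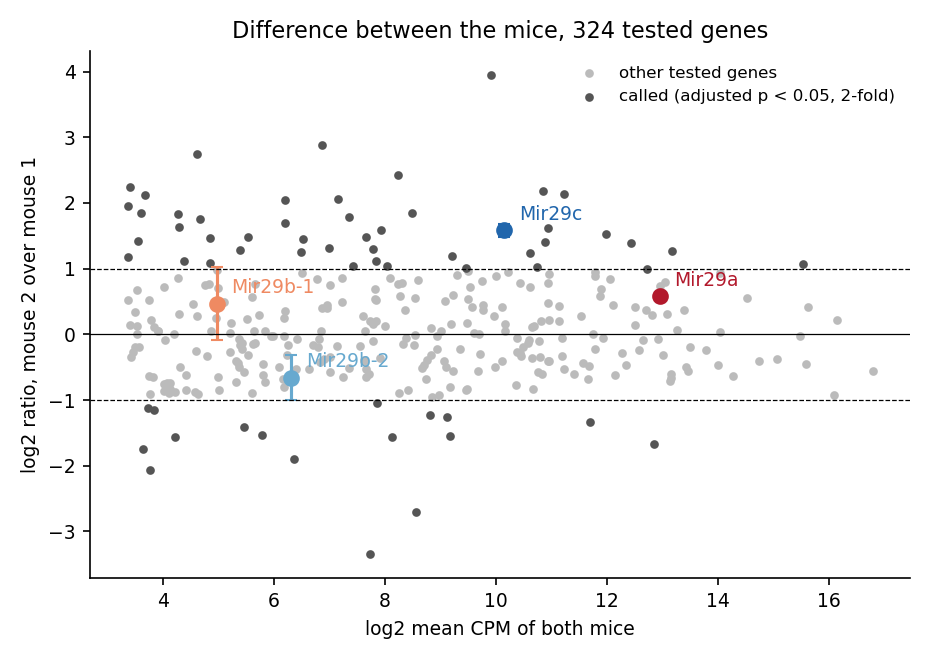
Log2 ratio of mouse 2 over mouse 1 against the log2 mean CPM for the 324 tested genes, with called genes in dark grey and dashed lines at 2-fold. The coloured points are the Mir29 genes with 95% counting intervals. Mir29c lies above the upper line at 1.58, and Mir29a, Mir29b-1 and Mir29b-2 lie between the lines.

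Ratios of members within a library do not depend on library scaling. In counted reads, they differed between the 2 libraries beyond counting error for all member pairs but Mir29a over Mir29b-1. The intervals leave out the spread between animals and between library preparations. Reads that fit both Mir29b hairpins are outside these counts, so ratios with a Mir29b gene do not measure mature miR-29b-3p. The part of this loss in the differences was not tested. Mir29a was 5.57 times as high as Mir29c in mouse 2 (95% exact counting interval 5.37 to 5.79) and 11.1 times as high in mouse 1 (10.5 to 11.9). On the log2 scale this ratio was lower in mouse 2 by a difference of −0.999 (95% exact interval of the odds ratio −1.11 to −0.89). The pair on chromosome 6 kept its ratio within counting error, with a difference of 0.11 (−0.44 to 0.66) for Mir29a over Mir29b-1. That interval spans changes in either direction, so equal ratios are not shown. The pair on chromosome 1 parted, with a difference of −2.24 (−2.60 to −1.88) for Mir29b-2 over Mir29c, the widest of the 6 member pairs. Mir29b-1 over Mir29b-2 differed by 1.12 (0.47 to 1.78) and Mir29a over Mir29b-2 by 1.24 (0.90 to 1.59). Mir29b-1 over Mir29c differed by −1.11 (−1.67 to −0.55).

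The other clusters give a scale for such a split in counted reads. Reads that fit both Mir29b hairpins are outside the counts of both Mir29b genes. The places take no account of depth, and the lowest count in the chromosome 1 pair was 117. Over the 97 neighbouring pairs the median absolute difference in log2 ratio between the 2 hairpins was 0.65. Mir29b-2 with Mir29c, at 2.24, took place 3, and Mir29b-1 with Mir29a, at 0.11, took place 87. Only Mir298 with Mir296 (2.87) and Mir410 with Mir3072 (2.36) lay further apart than the chromosome 1 pair. With neighbours taken up to 50 kb apart there were 107 pairs, and the places were 4 and 97.

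**Figure D5:**
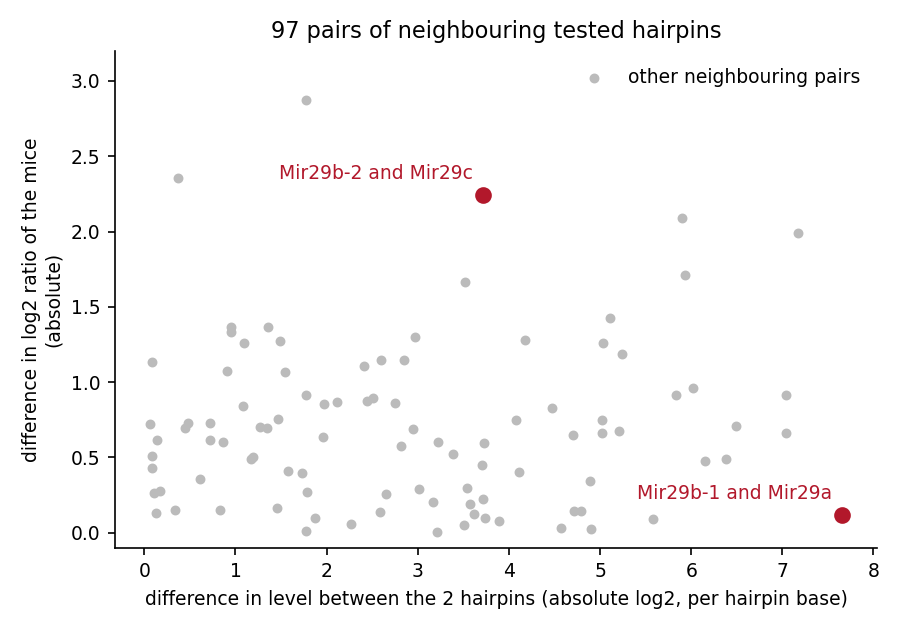
The 97 pairs of neighbouring tested hairpins, with the absolute log2 difference in level within the pair (per hairpin base) on the x axis and the absolute difference in log2 ratio of the mice on the y axis. The 2 Mir29 pairs are in red. Mir29b-1 and Mir29a lie at the far right and near 0 on the y axis (0.11), and Mir29b-2 and Mir29c lie near the top (2.24).

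The marker lists went both ways between the mice. Markers of oligodendrocytes and endothelium were higher in mouse 2, as Mir29a and Mir29c were, while the erythroid, choroid plexus and leukocyte sums were lower. The 2 oligodendrocyte markers had a sum of 5119 CPM in mouse 2 against 2746 CPM in mouse 1. Their log2 ratios were 0.93 for Mir338 and 0.78 for Mir219a-2, and neither was called. The endothelial Mir126a had 22380 CPM in mouse 2 against 11276 CPM in mouse 1 (log2 ratio 0.94) and was not called. The leukocyte list of 3 genes summed to 1412 CPM in mouse 2 against 1585 CPM in mouse 1. Most of that sum was Mir150 (log2 ratio −0.33, not called), while the less abundant Mir142 was called higher in mouse 2 (1.46). Mir223 had 22 counts in mouse 2 against 11 in mouse 1 and was not tested. The 3 erythroid genes were all lower in mouse 2, Mir451a and Mir144 being called, with a sum of 152.9 CPM in mouse 2 against 742 CPM in mouse 1. Over all tested genes, 5.25% were called lower and 14.2% higher in mouse 2. The list of 7 neuron markers summed to 27804 CPM in mouse 2 against 26838 CPM in mouse 1, and of its 4 tested genes 2 were higher and 2 lower in mouse 2. The 4 choroid plexus genes summed to 680 CPM in mouse 2 against 738 CPM in mouse 1, with 3 of 4 lower in mouse 2. The part of these markers in the Mir29 differences was not tested.

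Other microRNAs of the processes that Mir29 is known for are given as 3 lists, without a test of any list. Their counts of called genes stand beside the 14.2% of tested genes called higher and the 5.25% called lower in mouse 2. Of 14 genes known from the maturing brain 11 were tested, 1 was called higher and 1 lower in mouse 2, and the median log2 ratio was 0.03 against −0.0038 over all tested genes. Its most abundant genes were Mirlet7b (−0.92), the activity-induced Mir132 (1.07, called) and the neuronal Mir128-1 (0.03), and the gene called lower was Mirlet7c-1 (−1.54). Of 5 genes reported in astrocytes beside Mir29, 2 were called, both higher in mouse 2, and the median was −0.09. Mir26a-1 had 382 counts in mouse 2 against 52 in mouse 1 (log2 ratio 2.88), and Mir26a-2 had 223 in mouse 2 against 54 in mouse 1 (2.05). Any reads that fit several places are left out, here and in the other lists, so these counts give no level of mature miR-26a. The most abundant of that list were Mir23b (−0.64), Mir23a (−0.66) and Mir26b (−0.09), none of them called. Of 8 genes reported to target DNA methyltransferases or a reader of DNA methylation, 3 were called, all higher in mouse 2, 6 were higher at any size, and the median was 0.43. This list summed to 76375 CPM in mouse 2 against 36061 CPM in mouse 1, most of it Mir132. The called genes were Mir132, Mir143 (1.00) and Mir101b (1.19), while Mir212, which shares a cluster with Mir132, had 0.16. Mirlet7c-1, Mir26a-1, Mir26a-2 and Mir101b were named after their values were seen. Nothing particular to any of these lists is read from its count.

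Genes with the most similar pair of levels were sought by the distance of log2(CPM + 1) over the 2 libraries, a likeness that rests on 2 points. Nearest to Mir29a were Mir137 (9970 CPM in mouse 2 against 5768 CPM in mouse 1), Mir411 and Mir379, at distances of 0.116 to 0.256. Nearest to Mir29c were Mir187 (1338 CPM in mouse 2 against 697 CPM in mouse 1), Mir140 and Mir455, all further off at 0.487 to 0.648. Nearest to Mir29b-2 were Mir7044, Mir9-3 and Mir7047, and nearest to Mir29b-1 were Mir503, Mir33 and Mir152.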

How the data were processed

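Per the submitters' README notes, the deposited counts rest on mm10 and GENCODE M21. The aligner, counter and trimming are not given in the sources used here. Per gene, the authors deposited whole-number read counts in 3 unnamed columns, taken as unstranded, sense and opposite-strand from their totals. Sense counts were used. The 4 lines that name no gene stayed out of library sizes; as shares of all reads in mouse 2 and mouse 1, unmapped reads made 27.3% and 32.1%, reads at several places 37.2% and 34.6%, reads in no gene 5.63% and 6.11%, and ambiguous reads 0 on the sense strand. Hairpins matched GENCODE by identifier, and RefSeq by symbol for 4 of 4 members. From the counts, CPM, TMM factors over all genes (edgeR 4.0.16), exact binomial tests and exact intervals (scipy 1.17.1) were computed, after a check on simulated data. The simulated counts held counting error only, so that check does not bear on spread between animals or library preparations. With 1 group, edgeR's quasi-likelihood test could not be fitted. Alternatives were total counts, DESeq2 (1.42.0) size factors, GC correction, the unstranded column and no filter; TMM over the tested genes and GC correction with the mean removed were added after seeing the data. Named were the members, the 3 genes nearest to each, and the 3 most abundant of each list. Members and lists were chosen with earlier results of these data known.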

Additional observations from a re-analysis of the deposited data

How the results depend on the processing

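Under the 7 alternatives tried, Mir29a, Mir29b-2 and Mir29c kept the direction of their log2 ratio of mouse 2 over mouse 1. No direction is shown for Mir29b-1, whose counting interval spanned both directions in every setting. With the GC trend and the mean ratio removed, its interval was −0.54 to 0.56. The calls of Mir29a, Mir29b-1 and Mir29c stayed as they were. Most alternatives tested direction only weakly. Leaving out the filter changed no member's ratio, and the unstranded column held the same member counts. Other scalings shift all genes alike, and only the GC settings move members by unlike amounts. The ratio ran from 0.19 to 0.63 for Mir29a, from 0.00143 to 0.52 for Mir29b-1, from −1.03 to −0.61 for Mir29b-2 and from 1.32 to 1.63 for Mir29c. Mir29b-2 had an adjusted p under 0.05 by the exact test in every setting, so its call turned on the 2-fold limit. Its log2 ratio was −0.92 with the GC trend removed. It was called lower in mouse 2 only with the GC trend and the mean ratio removed, at −1.03. The number of called genes ran from 59 to 71, over unlike numbers of tested genes. The 71 were of 722 genes without the filter, the 62 of the unstranded column were of 308, and the other counts were of 324. With the GC trend and the mean ratio removed, 56.7% of calls were higher in mouse 2 (38 against 29 lower). The values as reported had 73.0% (46 against 17). Leaving out a replicate leaves the other mouse's value, from 6178 to 9561 CPM for Mir29a, 25.9 to 37.0 CPM for Mir29b-1, 62.8 to 95.8 CPM for Mir29b-2 and 555 to 1716 CPM for Mir29c, and no ratio. No paired analysis was possible because the labels give 1 group. Depth limits Mir29b-1 most, with 69 counts in mouse 2 and 50 in mouse 1.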
